A study of Danio rerio with 9 samples.

Results

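Whole zebrafish embryos whose chromosome sets had been lowered (haploid) or raised (tetraploid) were compared together with diploid embryos, to describe transcripts that differed from the diploid level in the same direction in both altered ploidies. The comparison set the mean of the haploid and tetraploid groups, each with equal weight, against the diploid group. There were 3 libraries in each group, 9 in all, and 5881 of the 30702 listed loci entered the test because their mean FPKM (fragments per kilobase of transcript per 1000000 mapped fragments) over the 9 libraries was at least 1. All embryos had a mother of the TJH strain and a father of the Tu strain and were taken 3 hours after fertilization. The labels give the 3 ploidies and refer to a published protocol for how they were made, and they name no other treatment. Total RNA was extracted with Trizol and had an integrity number of at least 9. The labels name no clutch or parent pair for any library, so the p-values below reflect how far these libraries scattered, a scatter that may be technical. In bulk samples of whole embryos, fewer cells of a type and less RNA per cell cannot be told apart.

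The early zebrafish embryo runs on messenger RNA that the mother loaded into the egg, and its own genome becomes active at the mid-blastula stage. The onset of zygotic transcription is known to be tied to the ratio of DNA to cytoplasm, and changes in ploidy have long been used to shift that ratio. Maternal factors such as Nanog open zygotic genes, while maternal transcripts are cleared in parallel.

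No locus differed between the altered ploidies and the diploids at an adjusted p under 0.05 (limma on log2(FPKM + 1) after scaling between libraries, Benjamini-Hochberg adjustment over 5881 loci). The smallest adjusted p was 0.80, and 101 loci had an unadjusted p under 0.05, which is 1.72% of those tested. Evenly spread p-values would put 5% of the loci, or 294, under that threshold. Of these 101 loci 38 were higher in altered ploidies (0.646%) and 63 were lower (1.07%). The difference was above 0 in 49.7% of loci and below 0 in 50.3%, and it reached 1 log2 unit in either direction in 45 loci (0.765%). Its median was -0.0016 on the log2 scale, and 95% of loci lay between -0.56 and 0.40.

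The precision of that result was set by the spread between the 3 libraries of a group. The median standard error of a difference was 0.196 log2 units, and the 95% interval extended a median of 0.44 to either side. The interval lay inside 1 log2 unit in both directions for 5131 loci (87.3%), so for these loci a difference of 1 log2 unit was outside the interval. For the other 750 loci the interval reached 1 log2 unit or more. In simulated data with these means and spreads, 66.0% of 200 loci altered by 1 log2 unit were called at the adjusted threshold. With an alteration of 0.5 log2 units none was called, and with 2 log2 units 94.5% were called. The simulated noise was independent between loci, with 1 spread per locus for all 9 libraries. The real libraries differed in spread, as given below, so these shares may not hold for them.

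The libraries differed from each other in ways that touch the results below. Tetraploid replicate 3 stood apart, with a median absolute deviation of 0.43 log2 units from the other libraries against 0.13 to 0.24 for the rest, and with 5395 loci at an FPKM of at least 1 against 5809 to 5921. The mitochondrial genome took 14.7% to 26.8% of the summed FPKM. The deposited confidence limits implied a median of 215.6 to 428.1 fragments per locus and library. The library tables also hold a second run of locus numbers, of which 44 of 15537 loci passed the filter against 5837 of 15165 in the first run. Genes of the second run below the filter were treated as not measured, and they include many members of the gene lists used below.

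Transcripts that lay on the same side of the diploids in both altered ploidies were taken as the loci in which all 6 altered libraries were above, or all 6 below, all 3 diploid libraries. There were 71 such loci (1.21% of those tested), 33 of them higher (0.561%) and 38 lower (0.646%). Libraries without any difference also separate in this way at some loci. The count was not tested against that share, so it does not show that these loci moved with ploidy. The split between higher and lower depended on the scaling: 46.5% of these loci were higher with the scaling used here, 21.2% with FPKM as deposited and 56.7% after quantile normalization. In the haploid and tetraploid comparisons taken one at a time, which share the 3 diploid libraries, 14 loci (0.238%) had an unadjusted p under 0.05 in the same direction in both. Shared diploids make the same direction more frequent without any difference, so nothing is read from this count. The loci higher in altered ploidies had a median level of 8.67 FPKM and the lower ones 6.45 FPKM, against 11.99 FPKM over all tested loci. Their median differences were 0.28 and -0.41 log2 units.

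**Figure D1:**
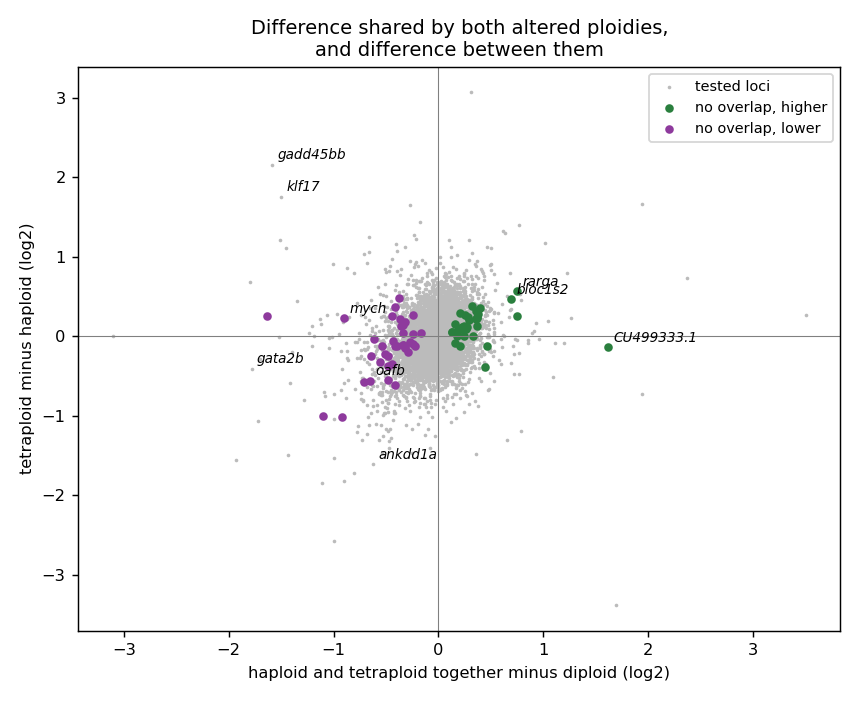
Each point is 1 of 5881 loci: the x axis gives the difference of haploid and tetraploid together from diploid and the y axis the difference of tetraploid from haploid, both in log2 units. The 33 loci with all 6 altered libraries above the diploids (green) and the 38 with all 6 below (purple) lie mostly within 1 log2 unit of 0 on the x axis. Beyond it lie CU499333.1 at 1.61 on the higher side, and si:zfos-169g10.3 at -1.63 and cdc42ep1b at -1.10 on the lower side.

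The largest shared difference relative to its error belonged to the locus CU499333.1 on chromosome 17 (positions 48929119 to 48934591 in the coordinates of the files, whose build the submitters' processing notes give as GRCz10). This locus carries only a clone-based name and was singled out after its values were seen. Its scaled FPKM was 3.15, 0.704 and 1.57 in the diploid libraries, 8.19, 6.74 and 7.43 in the haploid and 8.10, 6.76 and 5.41 in the tetraploid libraries. All 6 altered libraries lay above the highest diploid library, and the haploid and tetraploid ranges overlapped each other. The difference was 1.61 log2 units (SE 0.26, unadjusted p = 0.000136, limma adjusted p = 0.80). The median half-width of the deposited confidence limits of this locus was 77.1% of its FPKM.

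A further 24 genes were taken by rule, among loci with a single gene symbol, the 12 with the smallest p in each direction from the 30 higher and 33 lower candidates. None of these 24 genes passed the adjusted threshold (limma adjusted p = 0.9975 for each). Their differences ran from 0.24 to 0.75 log2 units among the higher genes and from -0.90 to -0.34 among the lower. In 19 of the 24 the diploid mean was under 10 FPKM. For dscama, klf12a and kif20bb it was under 1 FPKM, so they passed the filter through the altered libraries. In the authors' deposited tables of pooled Cuffdiff FPKM, which were made from the same libraries, all 24 had both altered groups on the same side of the diploid value as here. The genes were picked for that separation in these libraries, so nothing is read from this count.

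**Figure D2:**
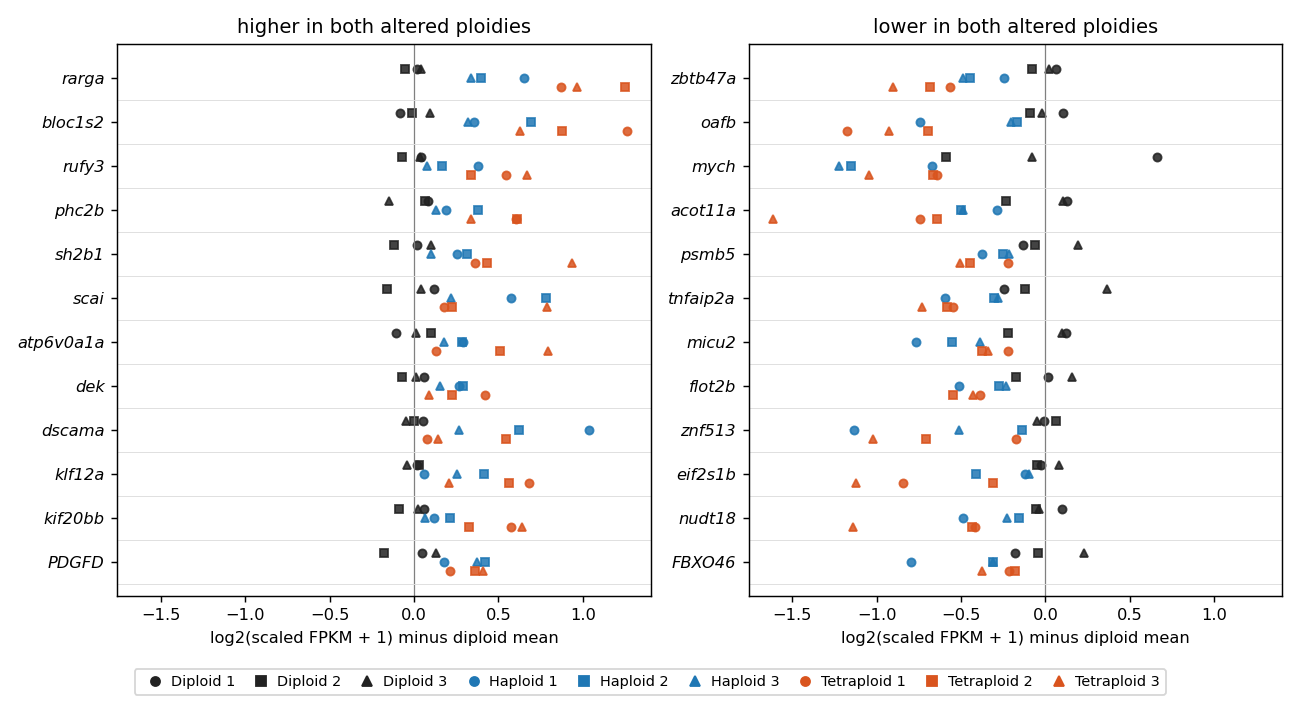
Each point is 1 library: the x axis gives log2(scaled FPKM + 1) minus the mean of the 3 diploid libraries, and each line of points is 1 of the 24 genes, 12 higher (left) and 12 lower (right) in altered ploidies. For rarga, bloc1s2 and oafb the tetraploid points lie farther from the diploids than most haploid points, while the haploid and tetraploid points of dek and PDGFD intermix.

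Among genes of signalling and cell contact, the highest shared difference was in rarga, which encodes a retinoic acid receptor of the gamma type, a nuclear receptor that acts as a ligand-gated transcription factor (chromosome 23, 35748396 to 35864932). Its scaled FPKM was 2.73, 2.55 and 2.79 in the diploid libraries, 4.80, 3.87 and 3.66 in the haploid and 5.74, 7.76 and 6.21 in the tetraploid libraries. The means with their SD over 3 libraries were 2.69 ± 0.126 in diploids, 4.11 ± 0.611 in haploids and 6.57 ± 1.06 in tetraploids. All haploid libraries were above all diploid ones and all tetraploid ones above all haploid ones. The combined difference was 0.75 log2 units (SE 0.16, unadjusted p = 0.000939), with 0.46 in haploids and 1.03 in tetraploids against the same diploids. The tetraploid minus haploid difference was 0.56 (unadjusted p = 0.0121, above the threshold after adjustment in limma). The other tested retinoic acid receptor genes were of the alpha type. For raraa the scaled FPKM was 0.963, 1.00 and 1.45 in the diploid libraries, 2.74, 1.24 and 1.25 in the haploid and 2.11, 2.31 and 1.62 in the tetraploid libraries, a difference of 0.41 with overlapping groups, and rarab differed by 0.10.

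Also in this group, sh2b1, an adaptor of receptor tyrosine kinase and JAK signalling, had a scaled FPKM of 3.62, 3.21 and 3.90 in the diploid libraries, 4.45, 4.68 and 3.91 in the haploid and 4.87, 5.16 and 7.75 in the tetraploid libraries. Its haploid replicate 3 exceeded the highest diploid library by very little, and the difference was 0.40 (SE 0.17). dscama, a cell adhesion molecule of the immunoglobulin superfamily, was low throughout, at 0.634, 0.578 and 0.524 in the diploid libraries, 2.23, 1.43 and 0.898 in the haploid and 0.665, 1.30 and 0.743 in the tetraploid libraries. Tetraploid replicate 1 was close to the highest diploid library, and the difference was 0.45 (SE 0.21). PDGFD, a platelet-derived growth factor, differed by 0.33 (SE 0.16). Under FPKM as deposited, sh2b1 and dscama overlapped the diploids.

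The next genes by role were bloc1s2, rufy3 and atp6v0a1a. bloc1s2, a subunit of a complex that builds lysosome-related organelles, had a scaled FPKM of 3.65, 3.88 and 4.25 in the diploid libraries, 5.29, 6.95 and 5.14 in the haploid and 10.8, 8.03 and 6.62 in the tetraploid libraries. Each altered library lay above the diploid range, and the combined difference was 0.69 log2 units (SE 0.18, unadjusted p = 0.00369). rufy3, which encodes a RUN and FYVE domain protein, had 14.7, 13.6 and 14.7 in the diploid libraries, 18.9, 16.2 and 15.2 in the haploid and 21.4, 18.4 and 23.4 in the tetraploid libraries, a difference of 0.36 (SE 0.13). atp6v0a1a, a membrane subunit of the proton pump that acidifies vesicles, had 8.19, 9.61 and 8.98 in the diploid libraries, 11.1, 11.1 and 10.2 in the haploid and 9.84, 13.1 and 16.2 in the tetraploid libraries, a difference of 0.36 (SE 0.16). In both of these genes the gap between the highest diploid and the lowest altered library was small against the spread of the tetraploids.

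Chromatin and transcription genes were present on both sides. Higher values were seen for phc2b, a Polycomb repressive complex component (0.37, SE 0.16), scai, a cofactor that in mammals restrains a serum response factor coactivator (0.46, SE 0.20), klf12a, a Krüppel-like transcription factor (0.36, SE 0.17), and dek, an abundant chromatin protein. The scaled FPKM of dek was 60.2, 55.0 and 58.1 in the diploid libraries, 69.7, 70.7 and 64.4 in the haploid and 77.6, 67.5 and 61.5 in the tetraploid libraries. It had the highest level of the 12 higher genes, its difference was 0.24 log2 units (SE 0.11), and tetraploid replicate 3 lay just above the highest diploid library. kif20bb, a kinesin motor gene, differed by 0.32 (SE 0.15). Under FPKM as deposited dek, phc2b, klf12a and kif20bb overlapped the diploids, and after quantile normalization dek did.

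On the lower side, mych, a transcription factor gene of the Myc family, had the largest difference of the 12. Its scaled FPKM was 9.14, 3.26 and 5.07 in the diploid libraries, 3.02, 1.88 and 1.74 in the haploid and 3.10, 3.03 and 2.10 in the tetraploid libraries. Diploid replicate 1 was far above the other diploids, diploid replicate 2 was only slightly above the highest altered library, and the difference was -0.90 log2 units (SE 0.27, unadjusted p = 0.00865). zbtb47a, a zinc finger gene of the BTB class, had 2.64, 2.302 and 2.55 in the diploid libraries, 1.94, 1.57 and 1.496 in the haploid and 1.36, 1.18 and 0.870 in the tetraploid libraries. The diploid values were close together, haploids lay below them and tetraploids below all haploids, with a difference of -0.55 (SE 0.16). znf513, another zinc finger gene, had 11.1, 11.7 and 10.7 in the diploid libraries, 4.54, 10.02 and 7.54 in the haploid and 9.77, 6.45 and 4.99 in the tetraploid libraries. Its altered libraries were widely spread, from well below to just under the diploids, with a difference of -0.61 (SE 0.25).

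Protein synthesis and turnover was represented by psmb5 and eif2s1b. psmb5 encodes the catalytic core subunit of the proteasome with chymotrypsin-like activity, and its scaled FPKM was 145, 152 and 182 in the diploid libraries, 122, 133 and 136 in the haploid and 136, 116 and 112 in the tetraploid libraries. Its means with their SD over 3 libraries were 159.5 ± 19.6 in diploids, 130.5 ± 7.55 in haploids and 121 ± 12.9 in tetraploids, the highest level of the 24 genes. The difference was -0.34 log2 units (SE 0.12). eif2s1b, one of the genes for the alpha subunit of the translation initiation factor that stress kinases phosphorylate, had 5.79, 5.68 and 6.32 in the diploid libraries, 5.38, 4.21 and 5.46 in the haploid and 2.85, 4.59 and 2.18 in the tetraploid libraries. Haploid replicates 1 and 3 lay just below the diploids, and tetraploid replicates 1 and 3 were the lowest (tetraploid minus haploid -0.55, unadjusted p = 0.0379), with a combined difference of -0.48. The other copy, eif2s1a, was expressed at a far higher level, 158, 124 and 125 in the diploid libraries, and differed by 0.10 with overlapping groups. FBXO46, an F-box gene, differed by -0.37 (SE 0.15).

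The other lower genes had varied roles. acot11a, an acyl-CoA thioesterase gene, had 4.52, 3.29 and 4.42 in the diploid libraries, 3.14, 2.57 and 2.59 in the haploid and 2.01, 2.23 and 0.646 in the tetraploid libraries, and tetraploid replicate 3 was lowest by a wide margin (difference -0.71, SE 0.23). oafb, a homologue of the Drosophila gene out at first, had 2.31, 1.89 and 2.04 in the diploid libraries, 0.835, 1.74 and 1.67 in the haploid and 0.363, 0.896 and 0.618 in the tetraploid libraries, with the tetraploid values below nearly all haploid ones (difference -0.65, SE 0.19; tetraploid minus haploid -0.56, unadjusted p = 0.0324). micu2, a regulator of the mitochondrial calcium uniporter, had 2.77, 1.97 and 2.71 in the diploid libraries, 1.03, 1.36 and 1.65 in the haploid and 1.97, 1.67 and 1.73 in the tetraploid libraries. Its diploid replicate 2 and tetraploid replicate 1 were equal in the digits given, so the separation rested on later digits, and the groups overlapped under FPKM as deposited and after quantile normalization. flot2b, a flotillin of membrane microdomains, differed by -0.40 (SE 0.15), tnfaip2a by -0.51 (SE 0.19, overlapping after quantile normalization) and nudt18, a nudix hydrolase gene, by -0.48 (SE 0.20).

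Some genes with lower unadjusted p missed complete separation by a single library. arpc3, a subunit of the Arp complex that branches actin filaments, had 22.4, 20.3 and 23.8 in the diploid libraries, 11.8, 15.9 and 20.4 in the haploid and 11.5, 9.06 and 11.6 in the tetraploid libraries. Haploid replicate 3 lay just above diploid replicate 2, and all other altered libraries were below the diploids. The difference was -0.73 log2 units (SE 0.18, unadjusted p = 0.00214, limma adjusted p = 0.9975), with -0.47 in haploids and -0.99 in tetraploids. gata2b, a GATA transcription factor gene named after its values were seen, had 4.14, 3.34 and 10.7 in the diploid libraries, 0.365, 0.462 and 3.89 in the haploid and 1.90, 0.0361 and 0.388 in the tetraploid libraries, a difference of -1.78 (SE 0.50). Haploid replicate 3 lay above diploid replicate 2 and the diploid values were widely spread.

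A pair of loci were listed at 0 in diploid libraries. The locus of vgll4b at 743124 to 745961 on chromosome 11, a cofactor gene of TEAD transcription factors, was listed at 0 in all 3 diploid libraries and in tetraploid replicate 2. It had 6.95, 4.97 and 1.57 in the haploid libraries and 6.29, 0 and 2.67 in the tetraploid ones. In the libraries above 0, the median half-width of its deposited confidence limits was 107.7% of the FPKM. Under the same symbol a neighbouring, longer locus (780610 to 937615) had 5.78, 4.39 and 4.69 in diploids and 5.36 to 7.05 in altered ploidies, a difference of 0.24 with overlap, so the values of 0 were in 1 of the 2 loci with that symbol. dut, a dUTP pyrophosphatase gene of nucleotide metabolism named after its values were seen, covers only 101 bases as listed on chromosome 18. Its scaled FPKM was 71.6, 0 and 0 in the diploid libraries, 26.7, 52.9 and 52.5 in the haploid and 27.5, 64.0 and 74.9 in the tetraploid libraries. Diploid replicate 1 was among the highest of the 9 libraries and the other 2 diploids were listed at 0. No library had a failed status for this locus, and the cause of the values of 0 was not tested. In the libraries above 0, the median half-width of the deposited confidence limits was 150% of the FPKM. Without diploid replicate 1, dut was the single locus that passed the adjusted threshold (limma adjusted p = 0.00195), with both remaining diploid values listed at 0.

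Gene lists were read by their counts and medians beside those of all tested loci, whose median was -0.0016 and of which 49.7% were above 0. With FPKM as deposited the median of all tested loci was -0.068. With no filter 14660 loci were tested and their median was 0.0043. List members below a mean FPKM of 1 then entered, so those list medians do not cover the same members. The lists were drawn up with earlier results of these data known. None of the 28 lists with tested members held a gene that passed the adjusted threshold. List members without overlap are to be read beside all tested loci, of which 0.561% were higher and 0.646% lower without overlap. At an unadjusted p under 0.05, 0.646% of all tested loci were higher and 1.07% lower.

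**Figure D3:**
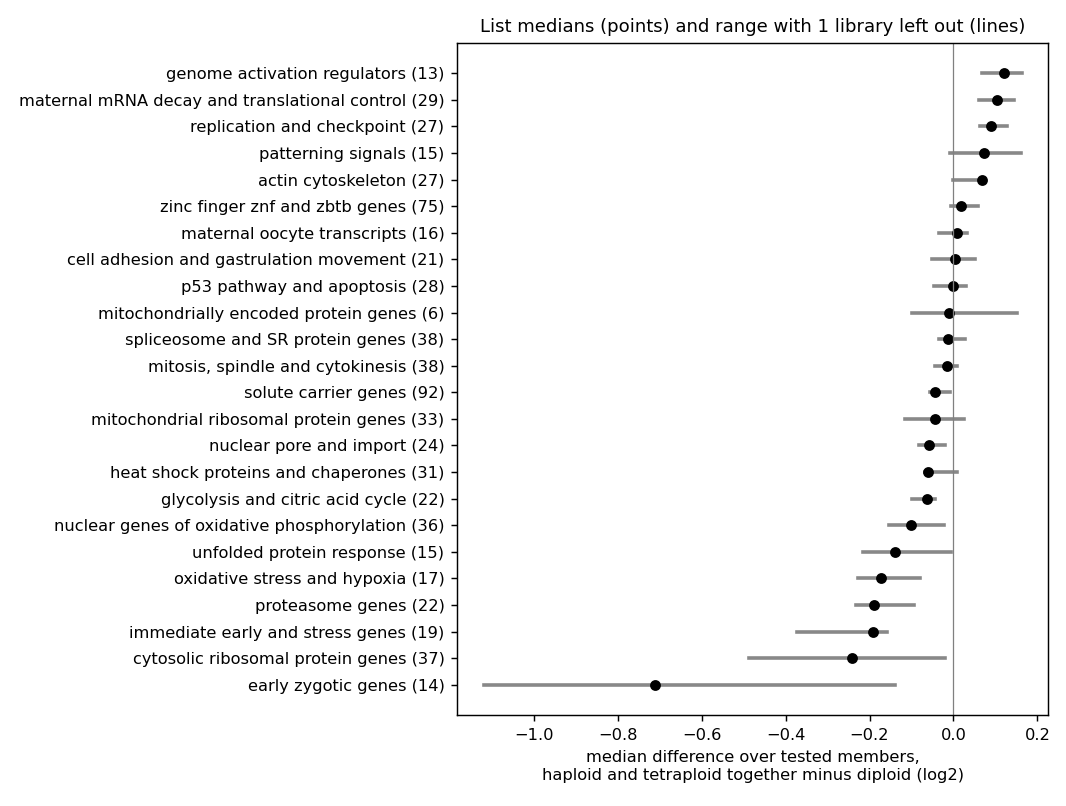
Points give the median difference of haploid and tetraploid together from diploid over the tested members of each gene list (number of members in brackets), in log2 units, and lines the range of that median when each of the 9 libraries is left out in turn and the filter is applied again. Of the lists shown, each with at least 5 tested members, early zygotic genes have the lowest median at -0.71, and their line reaches from -1.12 to -0.14.

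Early zygotic genes, which the embryo's own genome is first to transcribe, had the lowest median of the lists with at least 5 tested members, -0.71 log2 units, with 12 of 14 tested members below 0 and none without overlap between the groups. klf17, a Krüppel-like transcription factor gene, had 59.4, 10.2 and 21.4 in the diploid libraries, 18.2, 0.957 and 1.87 in the haploid and 16.8, 9.45 and 21.3 in the tetraploid libraries. Its difference was -1.504 (SE 0.73, unadjusted p = 0.0669), with -2.38 in haploids and -0.63 in tetraploids. irx7, an Iroquois homeobox gene, had 39.6, 3.34 and 8.26 in the diploid libraries, 10.04, 0.175 and 0.547 in the haploid and 7.22, 3.09 and 6.35 in the tetraploid libraries, a difference of -1.51 (SE 0.81). In both genes diploid replicate 1 was the highest of all libraries, and diploid replicate 2 lay inside the range of the altered libraries. Libraries with the same replicate number here form sets of consecutive library numbers, and the labels do not say whether a set shares a clutch. Within each set the diploid library was highest in both genes, in some sets by little. The list median within the sets was -1.50, -0.14 and -0.42 for replicates 1, 2 and 3.

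Diploid replicate 1 was the highest of the 9 libraries in 10 of the 14 early zygotic genes, whereas it was the highest in 6.72% of all tested loci. Haploid replicate 2 was the lowest in 8 of the 14, against 15.8% of all tested loci. Without diploid replicate 1 the list median was -0.14, and without diploid replicate 2 it was -1.12. The filter was applied again each time, so these medians do not cover the same members. grhl3 and wnt11 passed the filter only through diploid replicate 1, where they were highest, and left the list without it. The list median in these settings, and with no filter, thus depends on which members pass. It was -0.30 with no filter. Over the same 14 members as in the main setting, it was -0.32 with a pseudocount of 5 and -1.12 with library weights. The mean deviation of the list from the 9-library mean was 1.47 in diploid replicate 1, -0.33 in replicate 2 and 0.13 in replicate 3, while the altered libraries ran from -0.93 to 0.47. Of the markers of cell types that arise first, grhl3 of the enveloping layer had 13.1, 0.442 and 1.27 in the diploid libraries, 1.29, 0.341 and 0.255 in the haploid and 1.12, 0.261 and 1.53 in the tetraploid libraries, and mxtx2, a master regulator of the yolk syncytial layer, had 10.5, 1.47 and 3.00 in the diploid libraries, 2.68, 0 and 0.484 in the haploid and 3.77, 1.102 and 2.63 in the tetraploid libraries. With apoeb, 3 of the tested marker genes are also members of the early zygotic list, and in all 3 diploid replicate 1 was highest. Germ plasm markers, which are maternal, had 2 of 4 members on each side of 0 and a median of -0.03 (mean 0.01). Their median against the diploids was 0.05 in haploids and -0.11 in tetraploids. The part of diploid replicate 1 in the lower values of the altered ploidies was not tested apart from the values without it.

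**Figure D4:**
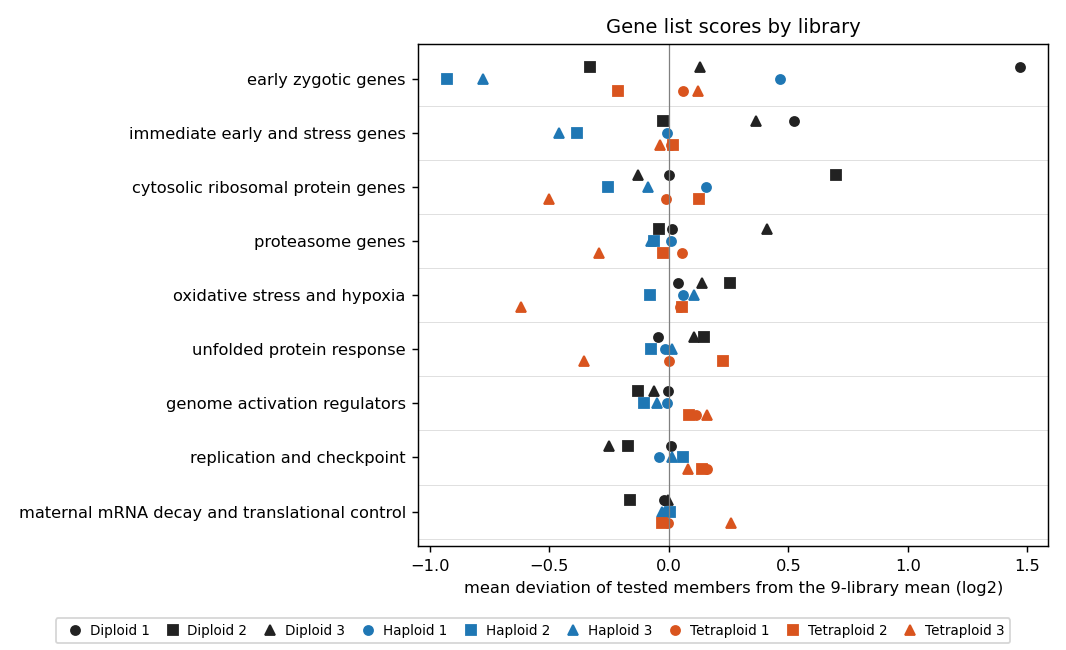
Each point is 1 library: the x axis gives the mean deviation of the tested members of a list from their 9-library mean in log2 units, and the lines are 9 gene lists. Diploid replicate 1 stands out at 1.47 for early zygotic genes, diploid replicate 2 at 0.70 for ribosomal protein genes and diploid replicate 3 at 0.41 for proteasome genes.

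Immediate early and stress genes, which cells switch on within minutes of a stimulus, had a median of -0.19 and 16 of 19 tested members below 0. The median was smaller with a mean FPKM of at least 5 (-0.07), with no filter (-0.07) and with a pseudocount of 5 (-0.09). The 4 with an unadjusted p under 0.05 were all lower: gadd45bb, gadd45ba, ier5 and mych, the first 2 of which encode growth arrest and DNA damage inducible proteins. Over all tested loci 1.07% were lower at that threshold and 0.646% higher. gadd45bb, gadd45ba and mych were among the genes carried over from earlier results of these data. gadd45ba and ier5 passed the filter through the diploids, with means of 3.56 and 2.44 FPKM there. Their means were 1.12 and 0.745 in haploids and 0.492 and 0.612 in tetraploids. A lower value of these genes was thus partly built in by the filter. gadd45bb had 23.4, 7.43 and 12.06 in the diploid libraries, 4.33, 0.224 and 0.615 in the haploid and 12.13, 7.21 and 7.66 in the tetraploid libraries. All haploid libraries were below all diploids, but tetraploid replicate 1 lay above diploid replicate 3, and tetraploid minus haploid was 2.16 (unadjusted p = 0.00313). gadd45ba had 4.91, 1.12 and 4.66 in the diploid libraries, 3.21, 0.0990 and 0.0403 in the haploid and 0.785, 0.509 and 0.181 in the tetraploid libraries, with -1.29 in haploids and -1.49 in tetraploids. Diploid replicate 2 was the lowest diploid and haploid replicate 1 was above it. The median half-width of the deposited confidence limits of gadd45ba was 64.8% of its FPKM. ier5, an immediate early response gene named after its values were seen, had 3.12, 0.960 and 3.23 in the diploid libraries, 1.75, 0.0967 and 0.388 in the haploid and 0.718, 0.768 and 0.350 in the tetraploid libraries and a difference of -1.01 (SE 0.34). Diploid replicates 1 and 3 were the highest libraries of the list in 7 and 6 of the 19 members, against 6.72% and 8.04% of all tested loci. The list median was -0.37 without diploid replicate 2 and between that value and -0.16 with any other library left out. Within the sets of consecutive library numbers it was -0.10, -0.25 and -0.53 for replicates 1, 2 and 3.

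Cytosolic ribosomal protein genes lay below 0 in 34 of 37 tested members, with a median of -0.24 and no member without overlap. rpl10a, the single member with an unadjusted p under 0.05, had 104, 201 and 84.5 in the diploid libraries, 98.7, 58.1 and 84.9 in the haploid and 69.6, 95.9 and 41.0 in the tetraploid libraries. Diploid replicate 2 was the highest of the 9 libraries in 29 of the 37 members, against 9.52% of all tested loci. Without it the list median was -0.02, and without diploid replicate 3 it was -0.49. Within the sets of consecutive library numbers the median was 0.06, -0.74 and -0.07 for replicates 1, 2 and 3. Tetraploid replicate 3 was the lowest library in 17 members (45.9%), against 28.9% of all tested loci. The list median was -0.13 with library weights and -0.08 with no filter. With no filter, members below the threshold also entered, and 40 of the 77 listed loci belong to the second run of locus numbers.

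The proteasome list, taken by symbol, had 19 of 22 tested members below 0 and a median of -0.19. One of the 22, psmc3ip, is named after a proteasome gene but acts in meiotic recombination. psmb5, described above, was the single member without overlap, and psmd1, a base subunit of the regulatory particle, had 35.9, 36.0 and 46.6 in the diploid libraries, 31.7, 35.0 and 36.2 in the haploid and 36.7, 33.6 and 24.1 in the tetraploid libraries. Diploid replicate 3 was the highest library in 9 members, against 8.04% of all tested loci. Tetraploid replicate 3 was the lowest in 11 of 22, against 28.9% of all tested loci. The median was -0.12 with library weights and -0.07 with no filter. It was -0.09 without diploid replicate 3 and lay between -0.23 and -0.09 over all single libraries left out.

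Oxidative stress and hypoxia genes (15 of 17 below 0, median -0.17) and unfolded protein response genes (12 of 15 below 0, median -0.14) also had low medians. prdx6, a peroxiredoxin that detoxifies peroxides, had 64.5, 58.4 and 55.3 in the diploid libraries, 59.3, 35.0 and 51.5 in the haploid and 33.6, 44.8 and 12.4 in the tetraploid libraries, a difference of -0.72 (SE 0.34). Tetraploid replicate 3 was the lowest library in 9 of the 17 and 8 of the 15 members (52.9% and 53.3%), against 28.9% of all tested loci. Without it the medians were -0.08 and -0.01. Library weights gave -0.07 and 0.01, and no filter -0.08 and -0.01. The second median was -0.22 with FPKM as deposited, where that of all tested loci was -0.07. eif2s1b was the single member of either list without overlap. Within the second list hyou1, a chaperone of the endoplasmic reticulum, had 70.24, 71.0 and 75.9 in the diploid libraries, 89.0, 97.8 and 60.6 in the haploid and 96.5, 102 and 95.5 in the tetraploid libraries, in which haploid replicate 3 was lower than all diploids and the other 5 altered libraries were higher.

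Several lists of regulators that the egg supplies had medians above 0. Genome activation regulators were above 0 in 12 of 13 tested members, with a median of 0.12, and the haploid median alone was 0.01 against 0.19 for tetraploids, so this too was nearly all tetraploid. hdac1, a histone deacetylase gene, was the single member without overlap, at 324, 325 and 316 in the diploid libraries, 332, 362 and 329.9 in the haploid and 327, 352 and 472 in the tetraploid libraries. The altered libraries lay close above the diploids apart from tetraploid replicate 3, which was far higher, and the difference was 0.16 (SE 0.13). nanog, the maternal homeobox gene, had 835, 849.6 and 945 in the diploid libraries, 889, 946 and 890.5 in the haploid and 922, 928 and 1160 in the tetraploid libraries. Diploid replicate 3 lay among the altered libraries and the difference was 0.12 (SE 0.12). supt16h, a subunit of the histone chaperone FACT, had 75.0, 84.2 and 69.2 in the diploid libraries, 82.1, 66.0 and 84.2 in the haploid and 109.9, 110.2 and 102 in the tetraploid libraries, in which the tetraploids were all higher than the diploids and the haploids were not. Tetraploid replicate 3 was the highest library in 7 of the 13 members, against 29.0% of all tested loci, and the list median was 0.07 without it. With FPKM as deposited the list median was 0.04, where that of all tested loci was -0.07.

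Replication and checkpoint genes were above 0 in 22 of 27 members, with a median of 0.09. The median against the diploids was 0.01 in haploids and 0.19 in tetraploids, so the combined value was nearly all tetraploid. With no filter on low values it was 0.02. mcm5, a subunit of the replicative helicase, had 65.1, 64.0 and 66.0 in the diploid libraries, 81.0, 71.8 and 79.3 in the haploid and 81.7, 66.7 and 135 in the tetraploid libraries, without overlap and with a difference of 0.36 (SE 0.19). rif1, which controls the timing of replication origins, had 97.7, 96.6 and 98.7 in the diploid libraries, 104, 114 and 109 in the haploid and 104, 111 and 130.1 in the tetraploid libraries, a difference of 0.19 (SE 0.10). tk1, a thymidine kinase gene named after its values were seen, had 12.9, 13.4 and 16.3 in the diploid libraries, 15.3, 23.3 and 16.5 in the haploid and 20.2, 22.4 and 18.1 in the tetraploid libraries, where haploid replicate 1 lay inside the diploid range, and an unadjusted p of 0.0317. chek1, a checkpoint kinase gene, differed by 0.20, with -0.08 in haploids and 0.48 in tetraploids. The list median lay between 0.06 and 0.13 when any 1 library was left out. It was 0.01 with FPKM as deposited, where the median of all tested loci was -0.07.

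Genes of maternal mRNA decay and translational control were above 0 in 21 of 29 members, with a median of 0.10. The median against the diploids was 0.01 in haploids and 0.16 in tetraploids. The combined median was 0.03 with FPKM as deposited, where that of all tested loci was -0.07. It was 0.01 with no filter and 0.04 with library weights. Tetraploid replicate 3 was the highest library in 19 of the 29 members, against 29.0% of all tested loci, and the median was 0.06 without it. The largest difference was in ago2, an Argonaute gene of small RNA silencing, at 12.7, 7.52 and 14.2 in the diploid libraries, 14.1, 19.5 and 14.7 in the haploid and 8.64, 10.6 and 23.3 in the tetraploid libraries with wide overlap. Mitosis, spindle and cytokinesis genes had 17 of 38 members above 0 and a median of -0.02. The median of this list against the diploids was -0.10 in haploids and 0.07 in tetraploids, so the combined value averaged opposite signs. ncaph, a condensin subunit, was its single member without overlap, at 91.6, 84.9 and 88.9 in the diploid libraries, 107, 121 and 93.4 in the haploid and 102, 92.1 and 100.5 in the tetraploid libraries, a difference of 0.21 (SE 0.11). Heat shock proteins and chaperones (13 of 31 above 0, median -0.06), p53 pathway and apoptosis genes (13 of 28, median -0.00) and maternal oocyte transcripts (8 of 16, median 0.01, mean -0.01) lay near the median of all loci. The medians of the mitosis, heat shock, p53, maternal and adhesion lists changed sign in some of the settings with a single library left out. Cell adhesion and gastrulation genes had 11 of 21 above 0 and a median of 0.00 with a mean of -0.13, and cxcr4a, a chemokine receptor gene, had 6.54, 3.31 and 5.66 in the diploid libraries, 2.22, 5.09 and 2.11 in the haploid and 1.77, 2.45 and 0.887 in the tetraploid libraries, where haploid replicate 2 lay inside the diploid range (difference -0.90, unadjusted p = 0.0137). Solute carrier genes had 41 of 92 above 0 and a median of -0.04, with slc38a10 higher (0.18) and slc22a15 lower (-0.32) without overlap. Their median against the diploids was 0.06 in haploids and -0.10 in tetraploids, again of opposite sign.

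Some genes were carried over from earlier results of these data in which haploids and tetraploids were compared. npm2a, an oocyte nucleoplasmin gene, had 50.9, 45.9 and 42.1 in the diploid libraries, 40.5, 31.2 and 37.9 in the haploid and 52.0, 53.6 and 49.0 in the tetraploid libraries. All haploid libraries were below the diploids and all tetraploid ones above the diploid mean, and the combined difference was -0.09. birc5b, a survivin gene, had -0.42 in haploids and 0.29 in tetraploids, and hspe1, a mitochondrial chaperonin gene, -0.15 and 0.68. hsp90ab1, a cytosolic chaperone gene, had 315, 332 and 309.8 in the diploid libraries, 269, 219 and 309 in the haploid and 290.3, 295 and 524 in the tetraploid libraries, a combined difference of -0.06 whose sign turned when haploid replicate 2 or tetraploid replicate 1 or 2 was left out. tspan13a, a tetraspanin gene, had 3.60, 7.56 and 7.43 in the diploid libraries, 4.48, 4.84 and 4.10 in the haploid and 2.13, 2.40 and 1.96 in the tetraploid libraries. Its tetraploids were all below the diploids, and the haploids lay between the diploid values (combined difference -0.74, unadjusted p = 0.0075). Between the altered ploidies themselves 454 loci (7.72%) had an unadjusted p under 0.05, and 1 locus (0.017%), ankdd1a, passed the adjusted threshold. Of the 24 genes above, none differed between tetraploid and haploid after adjustment and 3 had an unadjusted p under 0.05, which were rarga, oafb and eif2s1b.

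Differences were also read by chromosome and by locus span. Median differences on the 25 chromosomes lay between -0.04 and 0.04 log2 units, and that of the 13 mitochondrial loci was 0.10. In the quartile of loci with the shortest genomic span (up to 8232 bases as listed), 40.2% were above 0, with 1 locus higher and 11 lower without overlap. In the quartile with the longest span (38870 bases and more) 59.0% were above 0, with 16 higher and 7 lower without overlap. Loci without overlap were 0.815% of the shortest and 1.565% of the longest quartile. Over all tested loci they were 1.21%, with 0.561% higher and 0.646% lower. The median differences were -0.06 in the shortest and 0.03 in the longest quartile. Over the same quartiles the median deviation of diploid replicate 2 went from 0.079 to -0.059 and that of haploid replicate 2 from -0.060 to 0.080, so these libraries moved with span in opposite directions. Tetraploid replicates 1 and 2 also went down, from 0.046 to -0.021 and from 0.060 to -0.015. Tetraploid replicate 3 went up, from -0.085 to 0.019. Haploid replicates 1 and 3 changed less, from 0.007 to 0.013 and from -0.007 to 0.007. The combined rise with span was thus not shared by all altered libraries, and the part of single libraries in it was not tested.

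**Figure D5:**
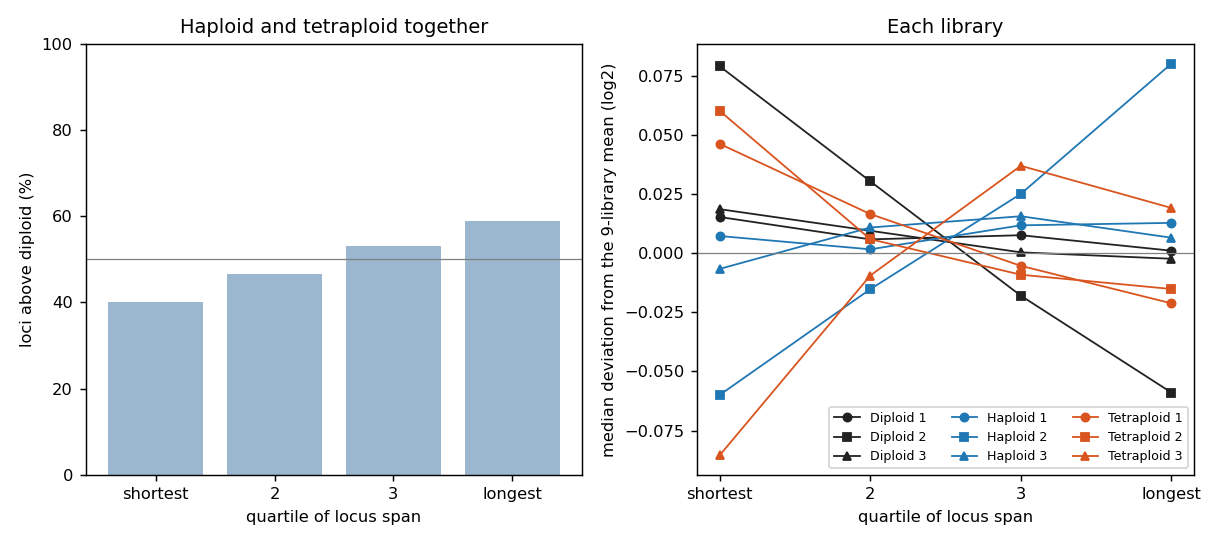
The left bars give the percentage of loci above the diploid level in haploid and tetraploid together for each quartile of locus span, from 40.2% in the shortest to 59.0% in the longest. The right lines give the median deviation of each library from the 9-library mean in log2 units, which go from 0.079 to -0.059 in diploid replicate 2 and from -0.060 to 0.080 in haploid replicate 2. Those of tetraploid replicates 1 and 2 also go down and that of tetraploid replicate 3 goes up.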

How the data were processed

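RNA was sequenced from whole embryos of 3 ploidies, 3 libraries each, and the authors deposited 1 table of FPKM values per locus for each library. The tools were FastQC, Trim Galore, HISAT2, Cufflinks and Cuffdiff with the build GRCz10, per the submitters' processing notes. Tool versions, annotation, strandedness and read filters were not given in the sources used. Without a strand setting, antisense overlap cannot be resolved, and how reads of near-identical gene copies were shared is unknown.

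FPKM are not counts, so no count test was run. The total depth is unknown, and the fragments per locus were read from the deposited confidence limits, taken as 2 SD of counting error. FPKM of each library were divided by median-of-ratios factors, and log2(scaled FPKM + 1) was fitted with limma 3.58.1 in R 4.3.3 (mean-variance trend, 3 groups, 6 residual degrees of freedom). A fold change on this scale understates the change of low genes. Loci with mean FPKM of at least 1 were kept, 5 loci with a failed status were dropped, and 162 of those tested have more than 1 symbol, between which reads cannot be assigned. P-values were adjusted by Benjamini-Hochberg over all 5881 loci, with a threshold of 0.05. The fit was tested on simulated data.

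The comparison, the 29 gene lists and the rule for named genes were chosen with earlier results of these data known. Named were any gene that passed; the 12 genes per direction with the smallest p among loci with 1 symbol, no placeholder name and no overlap between altered and diploid libraries; in each list the 2 such members per direction with the smallest p; and 16 genes carried over from earlier results. CU499333.1, gata2b, dut, ier5 and tk1 were taken after their values were seen. Some list members whose values are given, such as rpl10a and ago2, fall outside the rule. The pooled Cuffdiff FPKM served only where named as the authors' deposited table. A total of 21 alternatives were run, 2 of them chosen after seeing the data.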

Additional observations from a re-analysis of the deposited data

Results flagged for a closer look

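ankdd1a, a gene for a protein with ankyrin repeats and a death domain, met the condition that its haploid and tetraploid differences from the shared diploids differ from each other. Its scaled FPKM was 14.4, 15.2 and 15.5 in the diploid libraries, 15.2, 17.9 and 18.5 in the haploid and 5.23, 5.39 and 4.30 in the tetraploid libraries. The haploid libraries overlapped the diploids and all tetraploid ones were far below. Tetraploid minus haploid was -1.61 log2 units (limma adjusted p = 0.0101), with 0.18 for haploid and -1.43 for tetraploid against diploid. The combined difference of -0.62 is therefore an average of unlike values and not a shared difference.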

How the results depend on the processing

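The count of loci called at the adjusted threshold was 0 in 19 of 21 alternatives. It was 1, the locus dut, without diploid replicate 1, so the range with any 1 library left out was 0 to 1, and it was 1 with diploid replicate 1 and tetraploid replicate 3 left out together, an alternative chosen after seeing the data. The numbers of loci without overlap depended on the settings. Leaving out 1 library gave 49 to 138 higher and 57 to 166 lower loci, fewer libraries being easier to separate, and leaving out both libraries gave 174 and 170. No filter gave 64 and 90, a mean FPKM of at least 5 gave 20 and 21, and FPKM as deposited gave 14 and 52. Of the 33 higher and 38 lower loci, 14 and 36 were shared with FPKM as deposited and 22 and 26 with quantile normalization, and the cause was not tested.

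With FPKM as deposited, where the median of all loci was -0.068, list medians were -0.065 for maternal oocyte transcripts, 0.043 for genome activation regulators, -0.070 for p53 genes, -0.0094 for actin genes, -0.069 for adhesion genes, -0.13 for nuclear pore genes, -0.049 for zinc finger genes and -0.11 for solute carriers. No filter gave 0.045 for genome activation regulators and 0.00074 for nuclear pore genes, library weights gave 0.062 for the former, and leaving out 1 library gave 0.069 to 0.16 for it. Among named genes, with 1 library left out, hsp90ab1 ranged from -0.20 to 0.012 and birc5b from -0.14 to 0.065. The other named loci kept their sign in each alternative in which they passed the filter, which with a mean FPKM of at least 5 was 27 of 51 loci. Of the 24 genes chosen by p, 20 to 24 stayed without overlap when 1 library was left out. These genes were picked for having no overlap, which leaving out a library can undo only through the recomputed scaling or the filter. Nothing is therefore read from this count.

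The labels give no replicate numbers, and those used here follow accession order. Libraries with the same replicate number have consecutive library numbers, with 1 library of each ploidy in each set. Whether such a set shares a clutch or day is not stated, so no pairing was used in the main fit. A replicate block of consecutive library numbers called 0 loci, with 108 at an unadjusted p under 0.05. Restricting the test to the first numbering run, also chosen after seeing the data, called 0 loci. A planned description of promoter motifs was not run.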
